A study of Mus musculus with 6 samples.

Results

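The mitochondrial ribosomal protein genes are the nuclear genes whose symbols begin with Mrpl or Mrps followed by a digit. They were taken from the deposited gene table as the rows of that name annotated as protein-coding, which gave 78 members of 54532 genes. By the subunit their proteins belong to, 51 encode proteins of the large subunit and 26 proteins of the small subunit. Mrps18a and Mrps30 were counted with the large subunit, where their proteins sit despite the symbol. Mrps36 was counted with neither, since its protein is now known as a subunit of the 2-oxoglutarate dehydrogenase complex.

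The mitochondrial ribosome translates the few proteins encoded by mitochondrial DNA, all of them core subunits of the respiratory chain and ATP synthase. Its proteins are made in the cytosol, imported, and assembled on the mitochondrial 12S and 16S ribosomal RNAs, so that a working particle needs both genomes. T cells enlarge their mitochondria and depend on mitochondrial translation when they are activated and divide.

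RNA was sequenced from mouse T cells after co-culture with ID8, an ovarian cancer line of the same species. The ID8 cells had been treated beforehand with 40 µM cisplatin, a platinum drug that crosslinks DNA, in 3 libraries (cisplatin) and with PBS in the other 3 (PBS), to ask how drug-exposed tumour cells act on T cells. The drug was given to the ID8 cells and not to the T cells. In both groups the T cells came from spleens of C57BL/6 mice aged 6 to 8 weeks, were enriched with a Pan T cell kit, held in 10 ng/mL IL-2, and activated for 72 h with beads against CD3 and CD28 before they met the ID8 cells. Libraries of ID8 cells or T cells alone were not analysed here. The libraries were made from poly-A RNA and held between 30606569 and 32169496 reads on genes. Neither the labels nor the study's methods say whether libraries of a group came from separate mice, so the p-values measure the spread between these libraries.

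Marker genes of other cells moved with the groups. The 24 T cell markers summed to 3424 to 3505 FPKM (reads scaled to gene length and library size) in the cisplatin libraries and to 2147 to 2285 FPKM in the PBS libraries, and all 24 were called higher. The 20 epithelial and mesothelial markers of ID8 cells summed to 271.6 to 277.9 FPKM against 1721 to 1799 FPKM, and 17 of the 18 tested were called lower in the cisplatin libraries. The 10 B cell markers, 9 called higher and 1 lower, summed to 3593 to 3671 FPKM against 1668 to 1751 FPKM, and without Ighm, which made up most of this, the remaining 9 summed to 396.9 to 425.7 FPKM against 267.4 to 282.8 FPKM. The 12 myeloid markers, of which 8 of 9 tested were called higher, summed to 124.3 to 142.6 FPKM against 59.1 to 63.4 FPKM. No marker was at 0 in every library. Every cell with mitochondria makes mitochondrial ribosomal proteins, so in these bulk libraries fewer cells of a type and less RNA per cell cannot be told apart for any member below.

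The sequences just upstream of 5 members are given first, since they show where the genes discussed most below begin. Mrpl33 and Mrpl14 had the largest falls and Mrpl20 the largest rise, while Mrps11 and Mrpl46 start head to head and both rose. The windows run from 250 bases before to 50 after the RefSeq start (GRCm38.p6). Capitals mark the letters of 6 motifs searched on both strands: GCATGCGC of nuclear respiratory factor NRF1, CCGGAAG of ETS factors such as GABPA, AAGATGG of YY1, the E-box CACGTG, the CCAAT box, and GGGCGG of SP1.
Mrpl33, chr5:31613701-31614000, plus strand, with a CCAAT box, an NRF1 motif on the other strand and an ETS motif: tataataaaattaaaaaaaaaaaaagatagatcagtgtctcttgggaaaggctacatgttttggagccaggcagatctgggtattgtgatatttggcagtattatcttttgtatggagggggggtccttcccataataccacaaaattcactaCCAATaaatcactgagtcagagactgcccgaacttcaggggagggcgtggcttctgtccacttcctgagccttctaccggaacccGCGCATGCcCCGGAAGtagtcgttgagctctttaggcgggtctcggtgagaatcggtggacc
Mrpl14, chr17:45686099-45686398, plus strand, with 5 SP1 motifs, the first overlapping the next: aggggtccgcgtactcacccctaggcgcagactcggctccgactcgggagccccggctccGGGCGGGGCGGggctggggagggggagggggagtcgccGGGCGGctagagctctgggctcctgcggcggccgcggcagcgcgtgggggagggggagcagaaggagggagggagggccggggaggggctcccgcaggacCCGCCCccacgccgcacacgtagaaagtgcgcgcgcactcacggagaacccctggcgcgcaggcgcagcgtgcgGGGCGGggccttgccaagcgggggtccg
Mrpl20, chr4:155802628-155802927, plus strand, with an E-box and a CCAAT box: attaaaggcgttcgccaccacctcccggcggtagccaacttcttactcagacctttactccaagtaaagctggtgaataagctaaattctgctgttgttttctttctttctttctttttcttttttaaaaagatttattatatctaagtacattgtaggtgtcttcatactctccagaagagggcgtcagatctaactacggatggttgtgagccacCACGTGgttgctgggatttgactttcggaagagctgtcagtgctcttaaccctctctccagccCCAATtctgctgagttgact
Mrps11, chr7:78782881-78783180, plus strand, with a YY1 motif on the other strand and an SP1 motif: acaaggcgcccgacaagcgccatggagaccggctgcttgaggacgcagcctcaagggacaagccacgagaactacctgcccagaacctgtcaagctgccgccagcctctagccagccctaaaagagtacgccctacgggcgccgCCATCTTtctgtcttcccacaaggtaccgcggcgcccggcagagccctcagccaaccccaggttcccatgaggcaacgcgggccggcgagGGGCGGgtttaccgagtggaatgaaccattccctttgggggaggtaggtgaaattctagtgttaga
Mrpl46, chr7:78783040-78783339, minus strand, with the same SP1 motif read from the other side: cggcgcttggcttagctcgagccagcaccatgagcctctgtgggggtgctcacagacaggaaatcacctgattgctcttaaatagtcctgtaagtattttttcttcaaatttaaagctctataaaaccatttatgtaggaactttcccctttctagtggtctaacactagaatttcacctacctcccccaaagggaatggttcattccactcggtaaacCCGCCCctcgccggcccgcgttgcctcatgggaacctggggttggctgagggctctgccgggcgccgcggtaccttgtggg
The RefSeq start of Mrpl33 lies 17016 bases inside the gene as the deposited table draws it, whereas that of Mrpl20 is the table's own start. RefSeq windows were found for 69 member symbols, 75 windows in all. The ETS letters stood in 34.7% of the members' windows and in 8.9% of all 32851 windows, the NRF1 letters in 10.7% and 2.7%, and the YY1 letters in 17.3% and 6.3%. GGGCGG was found in 52.0% of the members' windows against 35.7% of all, CCAAT in 40.0% against 37.4%, and CACGTG in 9.3% against 7.2%. These shares describe letters in a window and not bound sites.

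The members were expressed at modest levels. Of the 78, 77 passed the minimum mean of 0.5 FPKM, and their means over the 6 libraries ran from 2.05 to 40.8 FPKM, with 35 of them above 10 FPKM. A tested member drew 141 to 2741 reads in a library. Summed over all members, the level was 894.3, 951.1 and 889.8 FPKM in the cisplatin libraries and 866.0, 924.8 and 910.8 FPKM in the PBS libraries, and the groups overlapped. As a share of the reads on genes, the members took 0.2025%, 0.2089% and 0.2018% in the cisplatin libraries and 0.1864%, 0.1931% and 0.1945% in the PBS libraries, and here the groups did not overlap. The 2 sums differ because the deposited FPKM rest on a library factor that averaged 1.038 times the reads on genes for the cisplatin group and 0.98 times for the PBS group.

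The most abundant member was Mrpl34, a small large-subunit protein with a bacterial counterpart, at 41.4, 47.2 and 36.4 FPKM in the cisplatin libraries and 34.2, 45.4 and 40.0 FPKM in the PBS libraries. Next came Mrpl43, a large-subunit protein without a bacterial counterpart, at 35.5, 37.9 and 31.5 FPKM against 33.9, 39.0 and 34.9 FPKM. Mrps21, of the small subunit, stood at 28.0, 35.6 and 30.2 FPKM against 25.9, 33.0 and 29.7 FPKM. For these 3 genes the groups overlapped, none passed the test, and the second library of each group was the highest. Of the 15 members whose gene length was under 1200 bases, the second library was the highest of its group for 11 in the cisplatin group and for 8 in the PBS group, beside 31 and 26 of the other 62 tested members.

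At the other end, Mrpl47 of the large subunit gave 2.13, 2.13 and 1.99 FPKM in the cisplatin libraries and 1.97, 1.86 and 2.35 FPKM in the PBS libraries, with the groups overlapping. Mrps25 of the small subunit gave 1.89, 2.01 and 1.93 FPKM against 2.10, 2.21 and 2.16 FPKM. All 3 cisplatin libraries lay below all 3 PBS libraries, but the difference did not pass the test (log2 fold change -0.14 ± 0.09 SE, limma adjusted p = 0.234), and 69.8% of the exonic bases of Mrps25 are shared with Nr2c2 on the other strand. Mrpl53, a protein near the base of the stalk, was listed at 0 in every library. Of its exonic bases 88.0% overlap other genes, chiefly Gm42688 on the same strand, so the 0 does not show that the gene was silent.

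The comparison of the groups was a limma test on log2(FPKM + 0.1) over the 15874 genes whose mean reached 0.5 FPKM, and a gene was called when its Benjamini-Hochberg adjusted p was under 0.05. On this scale the mitochondrial ribosome moved little as a whole, with single members moving in both directions. Over the 77 tested members the log2 fold change had a median of 0.025, beside 0.028 over all tested genes. Higher in the cisplatin libraries were 12 members (15.6% of those tested, beside 27.5% of all genes), and lower were also 12 (15.6%, beside 29.0%). The members are protein-coding by rule, whereas all tested genes include other types. With protein-coding genes only, 18 members were called higher and 16 lower, beside 31.8% and 37.2% of 12057 genes. The median was then 0.025 for the members and -0.018 for those genes. Under a scaling centred on the T cell markers no member was called higher by limma (0 also at an unadjusted p under 0.05) and 69 were called lower. Of all tested genes 4.61% were then called higher and 66.6% lower, and their median moved by -0.584. Quantile normalization called 30 higher and 7 lower, beside 37.1% and 24.2% of all tested genes. Both voom and FPKM rescaled by the reads on genes called 22 and 7. The shares of all tested genes were 31.7% and 25.6% with voom, and 33.4% and 25.7% with rescaled FPKM. The members' median stayed within -0.035 and 0.043 of the median of all tested genes under every way of processing tried. Scalings that multiply all genes of a library by the same factor, such as T cell centring and rescaled FPKM, move both medians nearly alike. For these the agreement was fixed in advance.

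The remaining 53 members did not pass the test. For 48 of these 53 the 95% interval of the log2 fold change lay within 0.5 on either side of 0. Groups did not overlap for 37 of the 77 members (48.1%, beside 64.2% of all tested genes), 19 higher and 18 lower in the cisplatin libraries. All 24 called members were among those 37. The log2 fold change showed little relation to the members' level (Pearson's r = 0.10, Spearman's rho = 0.10) or to gene length (r = -0.12, rho = -0.07) over 77 genes, which share the same 6 libraries.

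**Figure D1:**
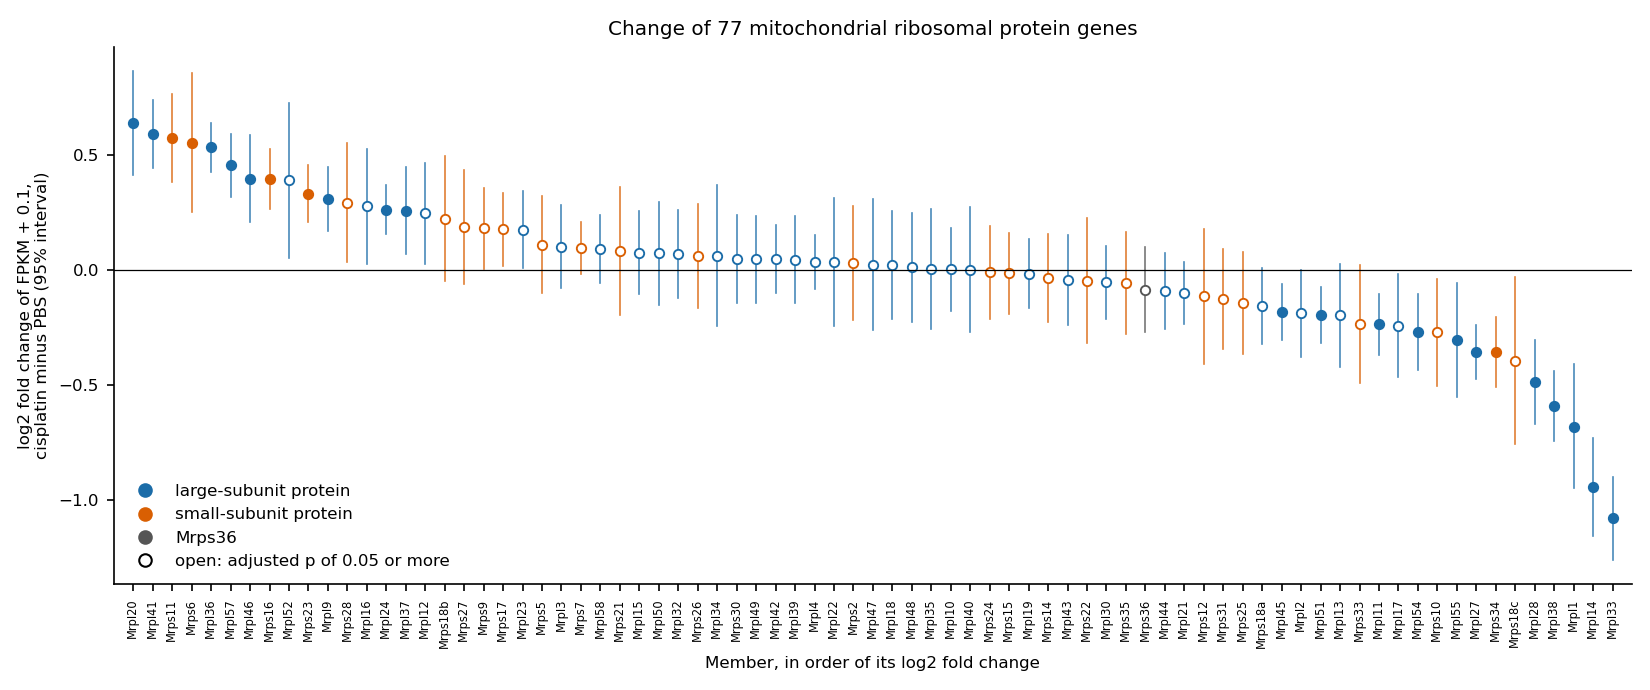
Log2 fold change of FPKM + 0.1 (cisplatin minus PBS, vertical axis) for the 77 tested members in order along the horizontal axis, with the 95% interval of each before adjustment for many tests. Filled points passed the adjusted test: 12 at the left are higher and 12 at the right are lower, with Mrpl33 lowest at -1.08. Under a scaling centred on T cell markers none of the 12 at the left was called higher, beside 4.61% of all tested genes.

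At a threshold of 2-fold in addition to the adjusted p, 1 member was called, and it was lower (12.8% of all tested genes were called lower at 2-fold, and 4.11% higher). That member was Mrpl33 (chr5:31596935-31664384, plus strand, GRCm38), a small protein of the large subunit with a bacterial counterpart. It gave 2.71, 2.40 and 2.69 FPKM in the cisplatin libraries and 5.72, 5.63 and 5.44 FPKM in the PBS libraries. The groups were far apart, with every PBS library at about the same level. The log2 fold change was -1.08 ± 0.07 (SE, limma adjusted p = 3e-05). It lay just past the threshold, and with a pseudocount of 1, after quantile normalization or with FPKM rescaled by the reads on genes it was called but not at 2-fold. The gene as drawn in the table holds 7326 exonic bases and starts well upstream of the RefSeq start, so the reads behind these values were collected over more than the window's own transcript.

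Mrpl14 (chr17:45686322-45698495, plus strand) encodes a large-subunit protein on the face that meets the small subunit. Its level was 14.5, 18.1 and 14.9 FPKM in the cisplatin libraries and 30.6, 29.0 and 31.4 FPKM in the PBS libraries. No library of one group came near the other group. Its log2 fold change was -0.94 ± 0.09 (SE, limma adjusted p = 0.000139), and without the second cisplatin library it was -1.04 and past the 2-fold threshold. Of its exonic bases 11.2% are shared with Tmem63b on the other strand, which was also lower (log2 fold change -0.39).

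Other large-subunit proteins fell by less. Mrpl1, whose bacterial counterpart forms the mobile stalk beside the site where tRNAs leave, gave 2.88, 3.34 and 3.15 FPKM against 4.53, 4.85 and 5.84 FPKM in the PBS libraries. The third PBS library was the highest and the groups did not overlap (log2 fold change -0.68 ± 0.11 SE, limma adjusted p = 0.00212). Mrpl38, a protein of the central protuberance found only in mitochondrial ribosomes, gave 11.8, 12.5 and 10.7 FPKM against 17.0, 18.0 and 17.6 FPKM. Here too every cisplatin library lay below every PBS library (-0.59 ± 0.06 SE, adjusted p = 0.000263). Mrpl28, which has a bacterial counterpart, gave 14.3, 17.6 and 16.2 FPKM against 22.3, 23.1 and 21.7 FPKM. The groups were again separate, with a log2 fold change of -0.48 ± 0.08 (SE, adjusted p = 0.00165). Further called lower, with log2 fold changes between -0.36 and -0.18, were Mrps34, Mrpl27, Mrpl55, Mrpl54, Mrpl11, Mrpl51 and Mrpl45. Of the 12 members called lower, 11 encode large-subunit proteins and 1, Mrps34, a small-subunit protein, and 77.8% of the exonic bases of Mrps34 are shared, mostly with Mapk8ip3 on the other strand. Mapk8ip3 itself was lower (log2 fold change -0.35).

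Among the members called higher, Mrpl20 (chr4:155802878-155809975, plus strand), a large-subunit protein whose bacterial counterpart binds the ribosomal RNA early in assembly, changed most. It gave 12.7, 12.7 and 10.2 FPKM in the cisplatin libraries and 7.45, 7.36 and 7.81 FPKM in the PBS libraries. The third cisplatin library was the lowest of its group but stood above every PBS library. The log2 fold change was 0.64 ± 0.09 (SE, limma adjusted p = 0.00119), and it was 0.055 and not called when the libraries were centred on T cell markers. That centring lowers every gene by the same amount.

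Mrpl41, a large-subunit protein found only in mitochondrial ribosomes, gave 20.7, 18.9 and 19.2 FPKM against 12.6, 12.4 and 14.0 FPKM in the PBS libraries. Mrpl36, among the smallest proteins of the large subunit, gave 20.9, 22.5 and 20.4 FPKM against 14.6, 14.5 and 14.8 FPKM. Mrpl57, also restricted to mitochondrial ribosomes, gave 10.5, 9.81 and 9.88 FPKM against 6.88, 7.47 and 7.60 FPKM. In all 3 genes each cisplatin library exceeded each PBS library. Their log2 fold changes were 0.59 ± 0.06 (SE, limma adjusted p = 0.000223), 0.53 ± 0.04 (SE, adjusted p = 8.17e-05) and 0.46 ± 0.06 (SE, adjusted p = 0.00056), and centring on T cell markers brought them to 0.007, -0.051 and -0.13, none of them called.

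Of the small-subunit proteins called higher, Mrps11 sits on the platform and Mrps6 beside a protein of the Mrps18 family. Mrps11 gave 6.17, 6.56 and 5.54 FPKM against 3.88, 4.24 and 4.02 FPKM in the PBS libraries (log2 fold change 0.58 ± 0.08 SE, limma adjusted p = 0.000918). Mrps6 gave 6.07, 8.19 and 8.43 FPKM against 5.02, 5.03 and 5.14 FPKM (0.55 ± 0.13 SE, adjusted p = 0.00876). The groups did not overlap for either gene, and the first cisplatin library of Mrps6 lay closer to the PBS libraries than to the other cisplatin libraries. With T cell centring the values were -0.009 and -0.03. Further called higher, with log2 fold changes between 0.26 and 0.40, were Mrpl46, Mrps16, Mrps23, Mrpl9, Mrpl24 and Mrpl37, and none of these was called higher under that centring. Of the exonic bases of Mrps6 19.9% are shared, the largest part with Gm49711 on the same strand. Mrpl24 shares 26.3% with Rrnad1 on the other strand, which was also higher (log2 fold change 0.33).

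**Figure D2:**
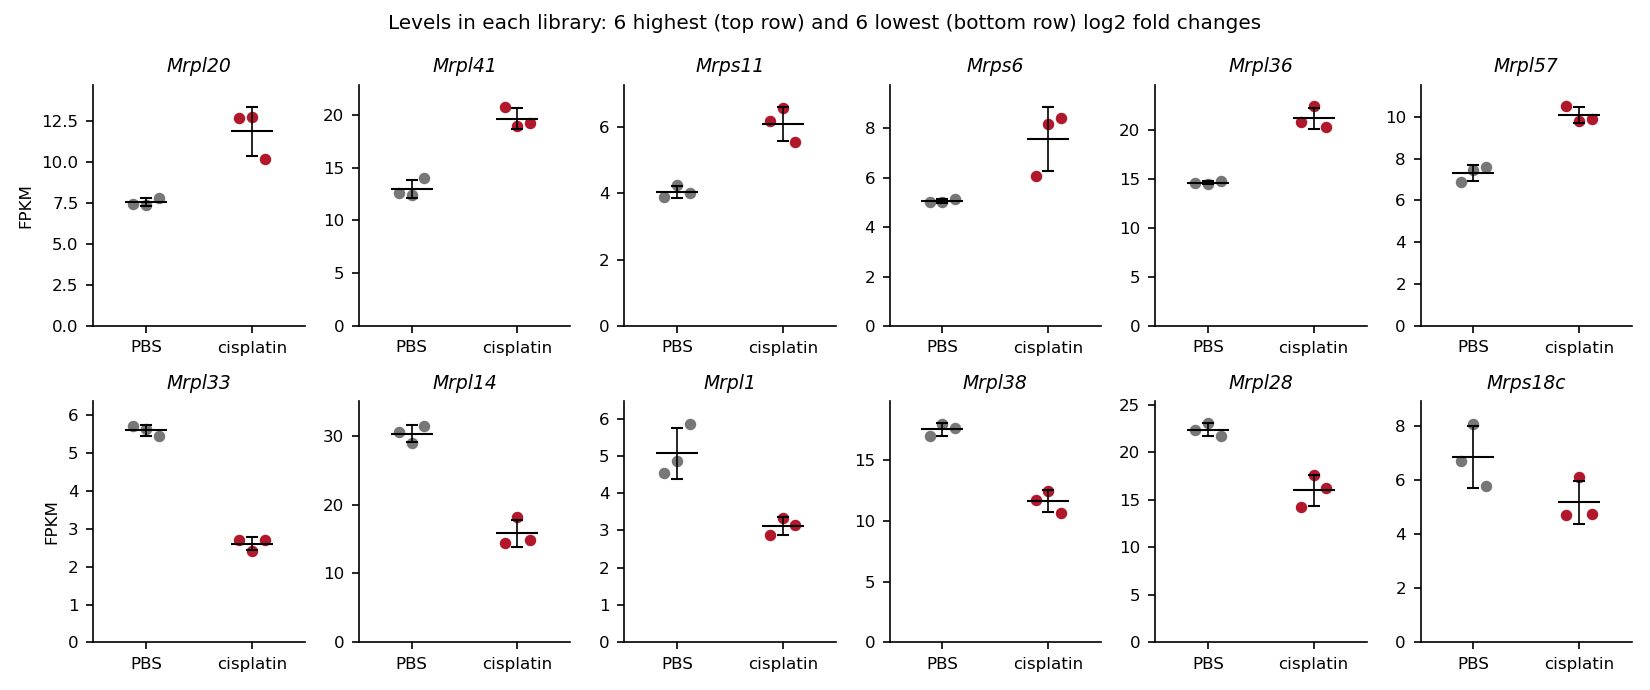
FPKM in each library (points) with the group mean and SD (lines, n = 3 per group) for the 6 members with the highest and the 6 with the lowest log2 fold changes. Groups were separate in 11 panels, where for example Mrpl33 stood at 2.40 to 2.71 FPKM in the cisplatin libraries and 5.44 to 5.72 FPKM in the PBS libraries, and overlapped for Mrps18c.

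By subunit, 4 of 26 small-subunit members were called higher (15.4%) and 1 lower (3.85%), with a median log2 fold change of 0.048. Of 50 large-subunit members 8 were called higher (16.0%) and 11 lower (22.0%), with a median of 0.024. Over all tested genes 27.5% were called higher and 29.0% lower. Both medians lay near that of all tested genes (0.028), and with T cell centring they were -0.54 and -0.56 beside -0.556 for all tested genes. The summed level of the small subunit was 244.7, 266.5 and 251.3 FPKM in the cisplatin libraries and 227.2, 248.2 and 240.7 FPKM in the PBS libraries. That of the large subunit was 640.0, 675.0 and 627.4 FPKM against 627.5, 666.1 and 659.8 FPKM. In both sums the groups overlapped. The difference between the subunits was not tested.

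The 3 Mrps18 genes encode related proteins. Mrps18a is a large-subunit protein, whereas those of Mrps18b and Mrps18c take 2 separate places in the small subunit. Mrps18a gave 5.78, 6.31 and 5.59 FPKM against 6.33, 6.97 and 6.43 FPKM in the PBS libraries, Mrps18b 4.70, 5.4 and 5.15 FPKM against 3.95, 5.09 and 4.04 FPKM, and Mrps18c 4.71, 6.11 and 4.76 FPKM against 6.72, 8.09 and 5.78 FPKM. The groups overlapped for Mrps18b and Mrps18c and just missed each other for Mrps18a. None passed the test (log2 fold changes -0.16, 0.22 and -0.39, limma adjusted p = 0.0982, 0.137 and 0.0639). Mrps18c was the member with the widest interval of the 12 extremes, -0.75 to -0.03, and it passed the test in some other ways of processing.

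Several members have roles beside their place in the particle. Mrpl12, the stalk protein that recruits translation factors and that also binds the mitochondrial RNA polymerase, gave 11.3, 12.5 and 9.85 FPKM in the cisplatin libraries and 9.0, 9.34 and 9.87 FPKM in the PBS libraries. The lowest cisplatin library fell within the PBS group (log2 fold change 0.25 ± 0.09 SE, limma adjusted p = 0.0554). Mrpl58, a hydrolase that frees stalled peptides, gave 8.26, 9.31 and 8.18 FPKM against 8.03, 8.10 and 7.97 FPKM. The groups were barely separate and the difference did not pass the test (0.09 ± 0.06 SE, adjusted p = 0.246). Mrps36 gave 9.48, 9.52 and 11.2 FPKM against 11.2, 10.5 and 10.2 FPKM (-0.08 ± 0.08 SE, adjusted p = 0.389). Its first and second cisplatin libraries lay below every PBS library, and the third lay within the PBS range. Pseudogene copies of Mrps36 could share its reads.

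Mrps11 and Mrpl46, a protein of the central protuberance, lie head to head on chromosome 7. Their RefSeq starts are 42 bases apart, the 2 windows printed above share 141 bases, and in the deposited table the gene spans overlap by 412 bases. Mrpl46 was taken up because of this position, after its values were seen. It gave 11.5, 12 and 10.1 FPKM in the cisplatin libraries and 7.89, 8.70 and 8.87 FPKM in the PBS libraries (log2 fold change 0.40 ± 0.08 SE, limma adjusted p = 0.00489). For both genes the cisplatin libraries were above the PBS libraries, and in both the third cisplatin library was the lowest of its group. The overlapping exons make up 8.0% of the exonic bases of Mrps11 and 12.2% of those of Mrpl46, and reads there cannot be assigned without strand.

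Besides this pair, 24 members had a protein-coding neighbour starting on the opposite strand, at most 1000 bases away or overlapping by at most 500 bases. All 24 neighbours were tested, 12 were called higher (50%, beside 27.5% of all tested genes) and 5 lower (20.8%, beside 29.0%). Their log2 fold changes ran from -0.48 to 1.16 with a median of 0.289, beside 0.028 over all tested genes. Unlike the neighbours, all tested genes include genes that are not protein-coding. With T cell centring the median was -0.296, with 3 called higher and 13 lower. Over all tested genes that centring gave a median of -0.556, with 4.61% called higher and 66.6% lower. Member and neighbour were both called in the same direction in 3 pairs and in opposite directions in 3 pairs. Mrps34 fell (-0.36) while Eme2, a subunit of a DNA-cutting enzyme, rose (1.16) 29 bases away. Mrpl27 fell (-0.36) while Eme1, of the same enzyme family, rose (0.72). Mrpl41 rose (0.59) and Pnpla7, a phospholipase gene 935 bases away, rose as well (0.88), and with T cell centring Mrpl41 was not called. Over the 24 pairs the 2 log2 fold changes had a Spearman's rho of 0.17, given as a description since all points share the 6 libraries.

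**Figure D3:**
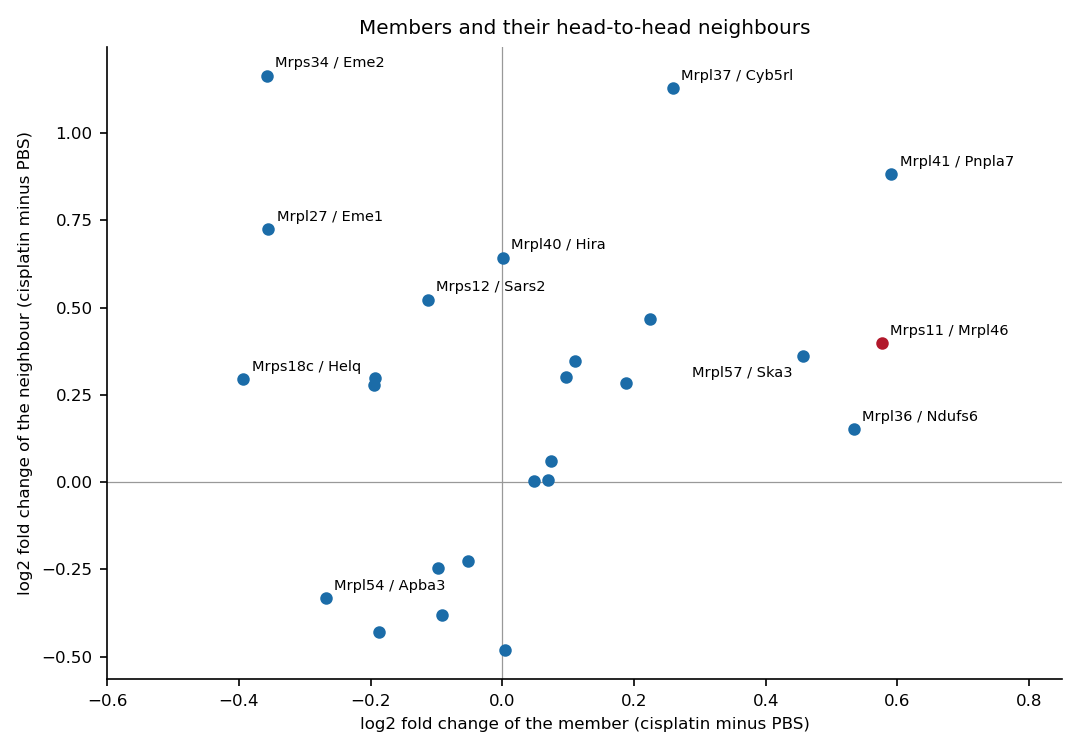
Log2 fold change of each member (horizontal axis) against that of its head-to-head neighbour (vertical axis), 24 pairs in blue and the member pair Mrps11 and Mrpl46 in red. The points spread widely, with Mrps34 and Eme2 at the upper left (-0.36 and 1.16) and Mrpl41 and Pnpla7 at the upper right (0.59 and 0.88).

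Of 5 genes for proteins of the particle that go by other names, limma called none higher (1 at an unadjusted p under 0.05, and 1 with voom, beside 27.5% of all tested genes) and 1 lower (20%, beside 29.0%), Dap3, a GTP-binding protein of the small subunit (log2 fold change -0.17, limma adjusted p = 0.0323). Ptcd3, Chchd1, Aurkaip1 and Gadd45gip1 had values between -0.04 and 0.10. The 2 ribosomal RNAs, which are copied from mitochondrial DNA, were at 478 FPKM against 471 FPKM for mt-Rnr1 and at 409 FPKM against 460 FPKM for mt-Rnr2 (group means), and mt-Rnr2 was called lower (-0.17, adjusted p = 0.0286).

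The genes that build and run the particle are given by their roles, beside 27.5% called higher, 29.0% called lower and a median of 0.028 over all tested genes. Among 27 tested assembly factors 9 were called higher (33.3%) and 1 lower (3.7%), with a median log2 fold change of 0.21. The largest rises were those of Pusl1 (0.80), a pseudouridine synthase, Mpv17l2 (0.68), an inner membrane protein, and Mterf3 (0.66), and the fall was that of Malsu1 (-0.35), which binds Mrpl14 on the large subunit and keeps the subunits apart. Among 15 translation factors 7 were called higher (46.7%) and 1, the ribosome recycling factor Mrrf, lower (6.67%), with a median of 0.175. They included Letm1 (0.53), Mtrf1l (0.42), a release factor, and Oxa1l (0.38), the insertase that receives the new proteins at the inner membrane. Of 20 tRNA-charging genes 7 rose (35.0%) and 2 fell (10%), with a median of 0.12 and with Tars2 (0.83) and Qrsl1 (0.82) moving most. With T cell centring these medians turned to -0.37, -0.41 and -0.47. Among these 3 groups a single gene then remained called higher, beside 4.61% of all tested genes.

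Genes that copy or transcribe mitochondrial DNA or act on its RNA gave 5 called higher (35.7%) and 1 lower (7.14%) of 14. Their median was 0.156 and turned to -0.43 with T cell centring. Polrmt, the RNA polymerase, rose (0.43), as did Tfb2m (0.32) and Tfam (0.23), its initiation factors, whereas Grsf1, an RNA-binding protein of the mitochondrial RNA granule, fell (-0.67, limma adjusted p = 5.38e-06). Of 13 nuclear regulators 5 were called higher (38.5%) and 1 lower (7.69%), with a median of 0.155. With T cell centring that median was likewise -0.43 and 1 was called higher, beside 4.61% of all tested genes. The coactivators Ppargc1b (0.92) and Pprc1 (0.62) rose, while Nrf1 (0.155), Gabpa (0.04) and Yy1 (0.01), whose motifs were counted above, did not pass the test. Also called were Gabpb2 (0.38), Myc (0.17) and Hcfc1 (0.16), which rose, and Esrra (-0.185), which fell. Not every listed coactivator was higher. Ppargc1a, below the minimum mean level and so not tested, gave 0.155, 0.101 and 0.112 FPKM in the cisplatin libraries. In the PBS libraries it gave 0.323, 0.309 and 0.311 FPKM, and every cisplatin library lay below every PBS library.

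Cytosolic ribosomal proteins, the family most like the members by name and role, are given for comparison. Of 83 tested genes 68 were called higher by limma (81.9%, beside 27.5% of all tested genes) and 0 with T cell centring (beside 4.61%). On the deposited scale none was called lower, also at an unadjusted p under 0.05 or with voom. The called genes had log2 fold changes from 0.155 to 0.678, and the median over all 83 was 0.363. Several of these genes have many processed copies, and a few, such as Rpl24 and Rps10, were at about 1 FPKM. Of 87 nuclear genes of the respiratory chain, ATP synthase and their assembly 16 were called higher (18.4%) and 21 lower (24.1%), with a median of -0.03. Ndufv3 fell most (-0.88) and Ndufb2 rose most (0.52). With T cell centring the cytosolic family was called lower for 62 genes and higher for 0, with a median of -0.22. The respiratory family was called lower for 79 genes, beside 66.6% of all tested genes. That centring lowers every gene by the same amount, so the difference of the 2 medians is kept by design and the sign is not. No test of the difference between families was made.

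**Figure D4:**
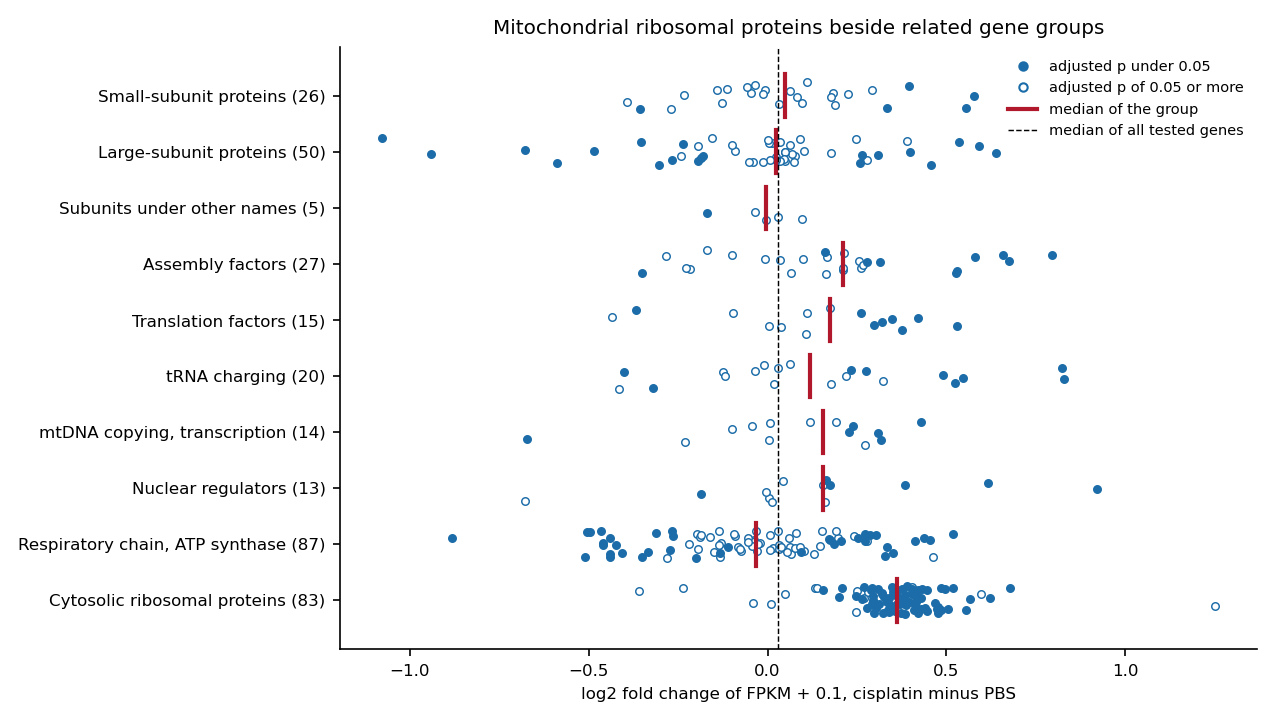
Log2 fold change (cisplatin minus PBS, horizontal axis) of each tested gene in 10 groups, the number tested in parentheses, with filled points for an adjusted p under 0.05, red bars for medians and a dashed line for the median of all tested genes (0.028). Both subunits of the mitochondrial ribosome centre on the dashed line (0.048 and 0.024) and the cytosolic ribosomal proteins to its right (0.363), while with T cell centring all 10 medians were below 0.

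The balance of the calls moved with the scaling. Of the members called, 50% were higher on the deposited scale, 81.1% after quantile normalization, 75.9% with voom on rebuilt reads, and 0.0% with T cell centring. The calls over all tested genes moved the same way. They were 27.5% higher and 29.0% lower on the deposited scale, and 37.1% and 24.2% after quantile normalization. With voom they were 31.7% and 25.6%, and with T cell centring 4.61% and 66.6%. Called in the same direction in every way of processing other than T cell centring and the minimum of 5 FPKM were 11 of the 12 higher members. Of the 12 lower members 7 were also lower in every way tried other than that minimum: Mrpl33, Mrpl14, Mrpl1, Mrpl38, Mrpl28, Mrpl27 and Mrps34. T cell centring lowers every gene, with 66.6% of all tested genes called lower, so members already lower could hardly fail it. These counts therefore do not compare how stable rises and falls are. T cell markers and ID8 markers moved in opposite directions between the groups, and their part in these values was not tested.

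**Figure D5:**
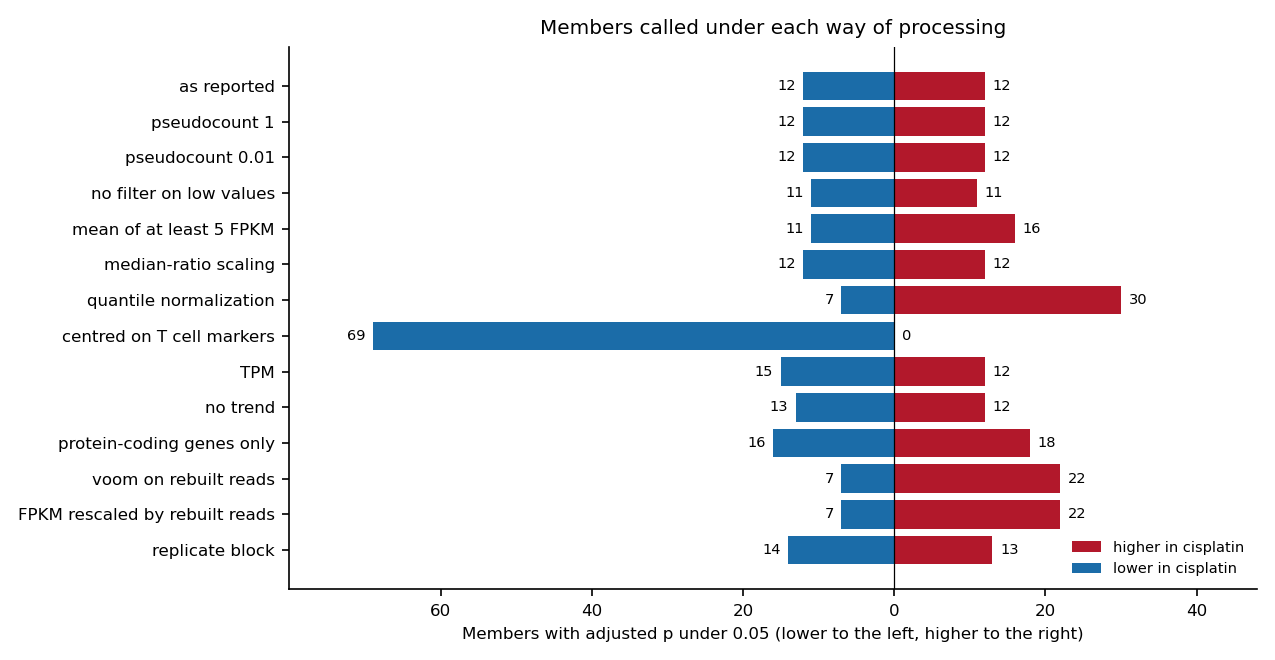
Number of members called lower (blue, to the left) and higher (red, to the right) in the cisplatin libraries as reported and under 13 alternatives. The counts are 12 and 12 as reported, 7 lower and 30 higher after quantile normalization, and 69 lower and 0 higher with T cell centring. Of all tested genes 29.0% were lower and 27.5% higher as reported. These shares were 24.2% and 37.1% after quantile normalization, and 66.6% and 4.61% with T cell centring.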

How the data were processed

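Poly-A RNA of 6 libraries was sequenced, 3 per group as the labels give them. The authors deposited FPKM for each gene, that is, reads scaled to gene length and library size. The study's methods name LifeScope for alignment and counting and DESeq2 for their tests, whereas the submitters' processing notes name fastp, HISAT2 2.0.5, featureCounts 1.5.0-p3 and mm10, and strand and multi-mapped reads are not given in the sources used here. Gene coordinates matched GENCODE M21 (GRCm38) for 53499 of 54409 shared genes and for 73 of 78 members.

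Whole reads were rebuilt from FPKM times gene length (100% of values above 0 within 0.1 of a whole read). They gave the depth, and cover counting error only. Tests used limma 3.58.1 (R 4.3.3; lmFit, eBayes with trend) on log2(FPKM + 0.1) over 15874 genes, with Benjamini-Hochberg adjustment over all of them. On simulated data with 200 changed genes at these depths, 175 (87.5%) were called among 15895 tested, and 11 unchanged genes. There far fewer genes changed than were called here, and the spread between libraries was set, not estimated. The simulated FPKM were scaled by the reads on genes and lacked the deposited library factor. These counts therefore show that the test runs, and do not give its error rates on the real libraries. Fold changes on this scale understate those of low genes. Alternatives were other pseudocounts, filters, scalings, voom, TPM, a replicate block and leaving out each library, and FPKM rescaled by rebuilt reads was added after seeing the data.

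Named were the 6 highest and 6 lowest log2 fold changes, members called at 2-fold, the 3 highest and 3 lowest levels, the Mrps18 genes, Mrpl12, Mrpl58 and Mrps36, and any gene of the lists. Some genes of the lists are not named here. The members and lists were chosen with earlier results of these data known. Per-sample columns not used numbered 0. Promoter windows were RefSeq's (GRCm38.p6). Python 3.11.15, pandas 2.3.3 and numpy 2.4.6 read the tables, and matplotlib 3.10.9 drew the figures.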

Additional observations from a re-analysis of the deposited data

How the results depend on the processing

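The counts of members called higher and lower, 12 and 12, became 30 and 7 after quantile normalization and 0 and 69 with centring on T cell markers. They were 22 and 7 with voom on rebuilt reads, and 22 and 7 with FPKM rescaled by rebuilt reads. With protein-coding genes only they were 18 and 16, beside 31.8% and 37.2% of the genes tested there. The shares of all tested genes, 27.5% and 29.0% as reported, moved too. They became 37.1% and 24.2% after quantile normalization, 4.61% and 66.6% with the centring, 31.7% and 25.6% with voom, and 33.4% and 25.7% with rescaled FPKM. The count at 2-fold, 1 as reported, was 0 with a pseudocount of 1, with a minimum mean of 5 FPKM (which drops Mrpl33), after quantile normalization and with rescaled FPKM, and 5 with the centring. The shares of all tested genes at 2-fold under these alternatives are not given here, so these counts stand without a background. The median of the members, 0.025, was 0.156 after quantile normalization and -0.56 with the centring, while that of all tested genes was 0.162 and -0.556, since these scalings shift all genes. Values that changed sign with the centring were those of Mrps11 (-0.009), Mrps6 (-0.03), Mrpl36 (-0.051), Mrpl57 (-0.129), Mrpl34 (-0.521), Mrps21 (-0.502), Mrpl47 (-0.56), Mrps18b (-0.36), Mrpl12 (-0.337) and Mrpl58 (-0.492). Values of members that passed no test here and changed sign under other scalings, still not called, were Mrpl43 (0.043 after quantile normalization and with voom, 0.042 with rescaled FPKM), Mrps25 (0.054 after quantile normalization) and Mrps36 (0.03 likewise). Of 413 values of named members under 19 alternatives, 364 kept their direction and side of the threshold, 24 came to pass it, 2 ceased to and 23 changed sign, 10 of these with the centring.

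Without each library in turn, 11 to 15 members were called higher, 10 to 13 lower and 1 to 2 at 2-fold, and the median ran from -0.006 to 0.045. Of all tested genes 23.8% to 25.2% were then called higher and 26.4% to 27.8% lower. Members near 0 changed sign without some library: Mrpl34 ran from -0.042 to 0.162, Mrps21 from -0.015 to 0.166, Mrpl43 from -0.101 to 0.031 and Mrpl47 from -0.042 to 0.118. The 2 at 2-fold, Mrpl33 and Mrpl14, came without the second cisplatin library. The deviations of same-numbered libraries correlated at 0.023, -0.063 and -0.021, and not every library correlated best with its own number. The labels do not say whether same-numbered libraries share a mouse or culture, and these correlations cannot decide it. With the replicate block 13 members were called higher, 14 lower and 1 at 2-fold, with a median of 0.025. Of all tested genes 26.1% were called higher and 27.8% lower with the block.

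At these depths every tested member drew at least 141 reads in each library, and the precision is limited by 3 libraries per group. Shared exons, pseudogene copies and the mixture of cells are not resolved by these values.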
